A study of Mus musculus with 9 samples.

Results

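Core circadian clock genes were examined in RNA-seq data from mouse colonic mucosa. The group consisted of 10 genes taken by symbol from the deposited gene table, which lists 54146 genes: the positive limb (Arntl, Clock and Npas2), the negative limb (Per1, Per2, Per3, Cry1, Nr1d1 and Nr1d2) and the output gene Dbp. All 10 were found once, and all 10 passed the filter on low values (10 or more normalized counts in 4 or more mice). That filter left 14410 genes, over which the main limma test of genotype was adjusted. The study asked how methylation of the p16 promoter acts together with Apc mutation in the intestine, and compared 5 ApcMin/+ mice with 4 ApcMin/+; p16cis/cis mice (called p16cis/cis mice here). All mice were C57BL/6J, 15 wk old and untreated as far as the labels state, and each mouse gave 1 library. Both groups carry the Min allele, a heterozygous germline mutation of the tumor suppressor gene Apc that gives rise to intestinal polyps. The p16cis allele, here on both chromosomes, is a germline knock-in of a short sequence that spreads DNA methylation over the p16 promoter, and it is present in every cell type of the animal, not in the gut lining alone. The ApcMin/+ group held 2 females and 3 males, and the p16cis/cis group 3 females and 1 male. According to the methods the RNA came from colonic crypts.

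The circadian clock is a feedback loop of transcription that runs in nearly every cell, including those of the gut lining, where it follows light through the brain and feeding directly. BMAL1 (encoded by Arntl) pairs with CLOCK or its paralog NPAS2 and switches on genes with an E-box, among them Per1, Per2, Per3, Cry1, Nr1d1, Nr1d2 and Dbp. PER and CRY proteins then block that pair, the nuclear receptors REV-ERBα and REV-ERBβ (Nr1d1 and Nr1d2) repress Arntl and Npas2 through ROR elements (ROREs), and DBP acts on D-boxes. Transcripts of the limbs therefore mostly, though not in every gene, peak at opposite times of day, and a single tissue sample catches the clock at 1 phase. The hour at which the mice were killed is not given in the sources used here and is a term in no fit, so hour of collection and genotype cannot be told apart in what follows.

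Libraries held 15745098 to 17885918 reads on genes in ApcMin/+ mice and 13523500 to 14900228 in p16cis/cis mice. Cdkn2a, which encodes p16, had 0 reads in all 9 libraries, which allows a share of up to 1.68e-05% to 2.22e-05% of a library (3 reads of its total, counting error only), so the targeted gene could not be used to check the labels. Mitochondrial genes took 8.74% to 15.6% of reads in ApcMin/+ mice and 19.3% to 29.8% in p16cis/cis mice, without overlap. Summed normalized counts of 6 epithelial markers ran from 115114 to 167010 over the mice, and those of 6 leukocyte markers from 94.1 to 1242. The sums of 5 surface colonocyte markers (91398 to 108228 in p16cis/cis mice, 129313 to 233136 in ApcMin/+ mice) and of 5 crypt base and cycling markers (7779 to 10573 and 4515 to 7692) did not overlap between genotypes. Nor did the single values of 16.2% of all genes tested. By limma 1 of these 5 surface colonocyte markers was called lower in p16cis/cis mice, and 1 of these 5 crypt base and cycling markers higher. The endothelial marker Cdh5 was too low to be tested, with a mean of 11.5 in ApcMin/+ mice and 0 in the p16cis/cis mice. The sums of the 3 endothelial markers overlapped (128 to 276 in ApcMin/+ mice and 129 to 279 in p16cis/cis mice). In such bulk samples, fewer cells that express a gene and less of its RNA per cell cannot be told apart.

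RefSeq promoter windows (GRCm38.p6, from 250 bases before to 50 after a start) were at hand for 9 of the 10 genes, in 13 windows, and were searched on both strands for the elements through which the loop works. The elements are shown as background, and whether they bear on the levels below was not tested. The E-box CACGTG lies in 7.15% of all 32851 windows of that length, the related E'-box CACGTT in 4.68%, the D-box (TTATGTAA or TTACGTAA) in 1.06% and the RORE in 0.384%. Of the 13 windows, 3 held an E-box or E'-box (Per1, Cry1 and Nr1d1), against 11.4% of all windows. The D-box occurred in the Per3 window and the RORE in the second Arntl window. No motif lay in the windows of Clock, Npas2, Nr1d2 or Dbp, which says only that these letters are not within this short stretch. Each stretch is written 5′ to 3′ on the strand of its gene, with the matched element in capitals. The Arntl stretch (chr7:113207528-113207557) lies just after the start, in exon 1 of the gene, and the others lie before the start.
Arntl, RORE, plus strand: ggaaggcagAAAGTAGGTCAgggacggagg
Per1, E-box, chr11:69098763-69098808, plus strand: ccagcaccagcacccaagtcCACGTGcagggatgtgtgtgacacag
Cry1, E'-box (read on the other strand) and E-box, chr10:85185089-85185153, minus strand: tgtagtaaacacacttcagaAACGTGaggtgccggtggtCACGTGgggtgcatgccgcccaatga
Nr1d1, E'-box (read on the other strand), chr11:98775380-98775425, minus strand: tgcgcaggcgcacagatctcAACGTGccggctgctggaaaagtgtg
Per3, 2 D-boxes, chr4:151044796-151044890, minus strand: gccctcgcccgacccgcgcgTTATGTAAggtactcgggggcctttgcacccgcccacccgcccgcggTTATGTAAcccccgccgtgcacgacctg

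Within the positive limb, the highest Arntl and Npas2 levels of the 9 mice were in p16cis/cis mice and so were the lowest. Arntl (ENSMUSG00000055116.8, chr7:113207465-113314126, plus strand, GRCm38) encodes BMAL1, the one activator the loop cannot replace. Its normalized counts were 474, 247, 711, 449 and 394 in ApcMin/+ replicates 1 to 5. They were 1046, 881, 137 and 634 in p16cis/cis replicates 1 to 4. Both p16cis/cis replicates 1 and 2 stood above every ApcMin/+ mouse, whereas replicate 3 stood below all of them, a 7.65-fold range within 1 genotype. The difference (p16cis/cis minus ApcMin/+, on the log2(normalized count + 1) scale used for all differences here) was 0.31 ± 0.50 (SE, n = 5 and 4, limma adjusted p = 0.71), smaller than the spread between mice.

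Npas2 (chr1:39193731-39363236), the paralog of Clock that is under direct REV-ERB repression, followed Arntl mouse by mouse. It had normalized counts of 459.7, 239, 765, 623 and 373 in the ApcMin/+ mice. In the p16cis/cis mice it had 1246, 713, 225 and 835. Again p16cis/cis replicates 1 and 4 exceeded all ApcMin/+ mice and replicate 3 was the lowest of the 9. The Npas2 difference was 0.49 ± 0.44 (SE, limma adjusted p = 0.478). Clock (chr5:76209868-76304792), whose transcript cycles weakly in most tissues, ranged from 1162 to 2384 in ApcMin/+ mice and from 1441 to 2301 in p16cis/cis mice. The Clock difference was 0.061 (95% CI −0.36 to 0.49, limma adjusted p = 0.859).

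**Figure D1:**
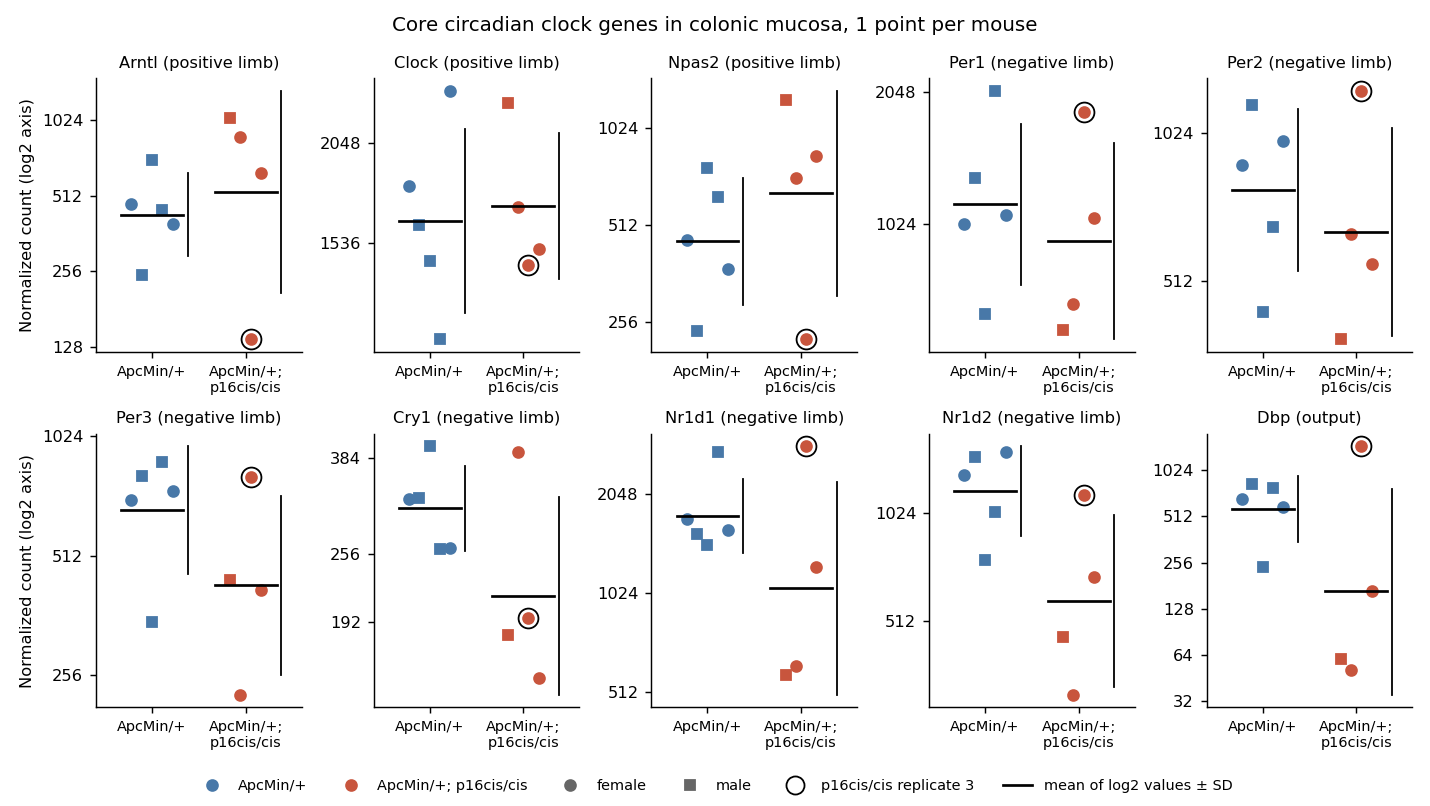
Normalized counts (log2 axes, a scale of its own per gene) of the 10 clock genes in 5 ApcMin/+ and 4 ApcMin/+; p16cis/cis mice, with the mean of log2 values as a horizontal line, their SD as a vertical line, and p16cis/cis replicate 3 ringed. In Arntl and Npas2 the ringed mouse is the lowest of the 9, and in Per2, Nr1d1 and Dbp it is the highest, whereas the other 3 p16cis/cis mice lie toward the opposite end.

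The period genes, whose proteins carry the repressing complex, mostly had the reverse order. Per1 (chr11:69095217-69109960), which also responds to glucocorticoids, had normalized counts of 1025, 1305, 639.98, 2062 and 1077 in ApcMin/+ mice and 588, 672, 1844 and 1057 in p16cis/cis mice. For Per2 (chr1:91415982-91459324) the counts were 882, 1163, 442, 657 and 985 in ApcMin/+ mice and 389, 636, 1244 and 553 in p16cis/cis mice. In both genes p16cis/cis replicate 1 was the lowest of all mice and replicate 3 the highest of its genotype, so the groups overlapped over nearly their whole range. The Per1 difference was −0.28 ± 0.35 (SE, limma adjusted p = 0.62) and the Per2 difference −0.28 ± 0.33 (SE, limma adjusted p = 0.583). Per3 (chr4:151003652-151044665), which is dispensable for the rhythm itself, had 706, 811, 349, 883 and 743 in ApcMin/+ mice and 444, 228, 808 and 419.8 in p16cis/cis mice. Here 3 of the p16cis/cis mice lay under 4 of the ApcMin/+ mice, and ApcMin/+ replicate 3 lay among them. The Per3 difference was −0.63 ± 0.33 (SE, limma adjusted p = 0.213).

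Cry1 (chr10:85131700-85185064), the strongest repressor of the BMAL1 pair, differed in pattern from the other negative limb genes. Its normalized counts were 324, 324, 404, 262 and 263 in ApcMin/+ mice. In the p16cis/cis mice they were 182, 394, 195 and 152, so that replicates 1, 3 and 4 lay below every ApcMin/+ mouse and replicate 2 was among the highest. The Cry1 difference was −0.53 ± 0.25 (SE, limma adjusted p = 0.156). It was −0.82 (limma adjusted p = 0.0249) without p16cis/cis replicate 2, the 1 mouse of its genotype that went against the difference, so that value is a description and no test.

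Nr1d2, which encodes REV-ERBβ, was the 1 clock gene of 10 that passed the limma test in the 9 mice, and it was lower in p16cis/cis mice. Of all genes tested, 8.75% were called lower and 8.14% higher, so 1 call among 10 genes is near the share of all genes. Nr1d2 (ENSMUSG00000021775.11, chr14:18204054-18239127, minus strand) had normalized counts of 1299.99, 1457, 759, 1026 and 1503 in ApcMin/+ mice. In p16cis/cis mice it had 463, 321, 1147 and 681, so that 3 mice lay below every ApcMin/+ mouse and replicate 3 lay among them. The difference was −1.005 ± 0.32 (SE, n = 5 and 4, limma adjusted p = 0.0485). The exact permutation test, two-sided, gave p = 0.0476, which is not adjusted for the 10 genes and is the lowest of them. The call was near its threshold, and edgeR called 0 clock genes lower. By limma it was lost when any 1 of 6 mice was left out (adjusted p 0.0859 to 0.137 for ApcMin/+ replicates 1, 2 and 5 and p16cis/cis replicates 1, 2 and 4). With the mitochondrial share as a covariate, which did not overlap between genotypes, the difference was −0.79 (limma adjusted p = 0.876), and 0 of all 14410 genes passed.

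Nr1d1 (chr11:98767932-98775333), which encodes REV-ERBα, spread more widely. Its normalized counts were 1729.6, 1554, 1439, 2759.6 and 1594 in ApcMin/+ mice and 579.6, 616, 2869 and 1233 in p16cis/cis mice. In 3 of the p16cis/cis mice it was below all ApcMin/+ mice, and in replicate 3 it was the highest of the 9. The Nr1d1 difference was −0.73 ± 0.39 (SE, limma adjusted p = 0.218). Nr1d1 shares 263 of its 3077 exonic bases (8.55%) with Thra on the other strand (mean normalized count 1061 in ApcMin/+ mice and 1168 in p16cis/cis mice), and whether counting used strand is not stated.

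Dbp, the D-box activator through which the clock drives many outputs, had the widest spread of the 10 genes. Dbp (ENSMUSG00000059824.12, chr7:45705088-45710203, plus strand) had normalized counts of 665, 827, 241, 780.5 and 590.2 in ApcMin/+ mice and 60.6, 51.0, 1461 and 166 in p16cis/cis mice. The highest value of the 9 mice and the 3 lowest were thus all from p16cis/cis mice, a 28.6-fold range against 3.43-fold in ApcMin/+ mice. The difference was −1.78 ± 0.80 (SE, 95% CI −3.51 to −0.044, limma adjusted p = 0.142, unadjusted exact permutation p = 0.135). On a linear scale replicate 3 weighs more, and the log2 ratio of the group means was −0.51. Dbp shares 539 of its 2993 exonic bases (18.0%) with Sphk2 on the other strand, which had a mean normalized count of 2229 in ApcMin/+ mice and 2324 in p16cis/cis mice.

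Counted over the 10 genes, the 3 of the positive limb had differences above 0 (0.061 to 0.49) and the 7 others below 0 (−1.78 to −0.28), with a median of −0.41 against −0.0041 over all genes tested. By the limma test 1 was called lower, where 8.75% of all genes were, and 0 were called higher, where 8.14% were. The unadjusted limma p was under 0.05 for 2 genes, Nr1d2 and Dbp, both lower. While edgeR and DESeq2 also called 0 higher, edgeR called 0 lower and DESeq2 called 1 lower. Each of those tests had 1 clock gene with an unadjusted p under 0.05. DESeq2 gave Dbp no adjusted p, so that gene could not be called by it. For 0 of the 10 genes did the genotypes separate without overlap, against 16.2% of all genes. The spread of these genes within a genotype was large for this table. In 8 of the 10 the SD of log2 values within genotypes exceeded that of 80% of the genes tested, with Dbp (SD 1.55) above 99.0%, Arntl (0.97) above 95.5%, Npas2 (0.85) above 93.6% and Nr1d1 (0.76) above 91.5%. Clock (0.35) and Cry1 (0.44) were the exceptions.

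Much of that spread was p16cis/cis replicate 3. The clock index, defined here as the mean log2 level of the 3 positive limb genes minus that of the 7 others, was −0.20, −1.07, 0.83, −0.46 and −0.25 in ApcMin/+ replicates 1 to 5. It was 2.19, 1.65, −1.61 and 0.97 in p16cis/cis replicates 1 to 4. The index thus placed p16cis/cis replicates 1, 2 and 4 first of the 9 mice, ApcMin/+ replicate 3 next, and p16cis/cis replicate 3 last, behind ApcMin/+ replicate 2. Group means were −0.23 ± 0.68 (SD, n = 5) and 0.80 ± 1.68 (SD, n = 4), a difference of 1.03 that ran from 0.57 to 1.84 as each mouse was left out. Without replicate 3 the p16cis/cis mean was 1.60 ± 0.61 (SD, n = 3). As a score over chosen genes it was given no test.

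**Figure D2:**
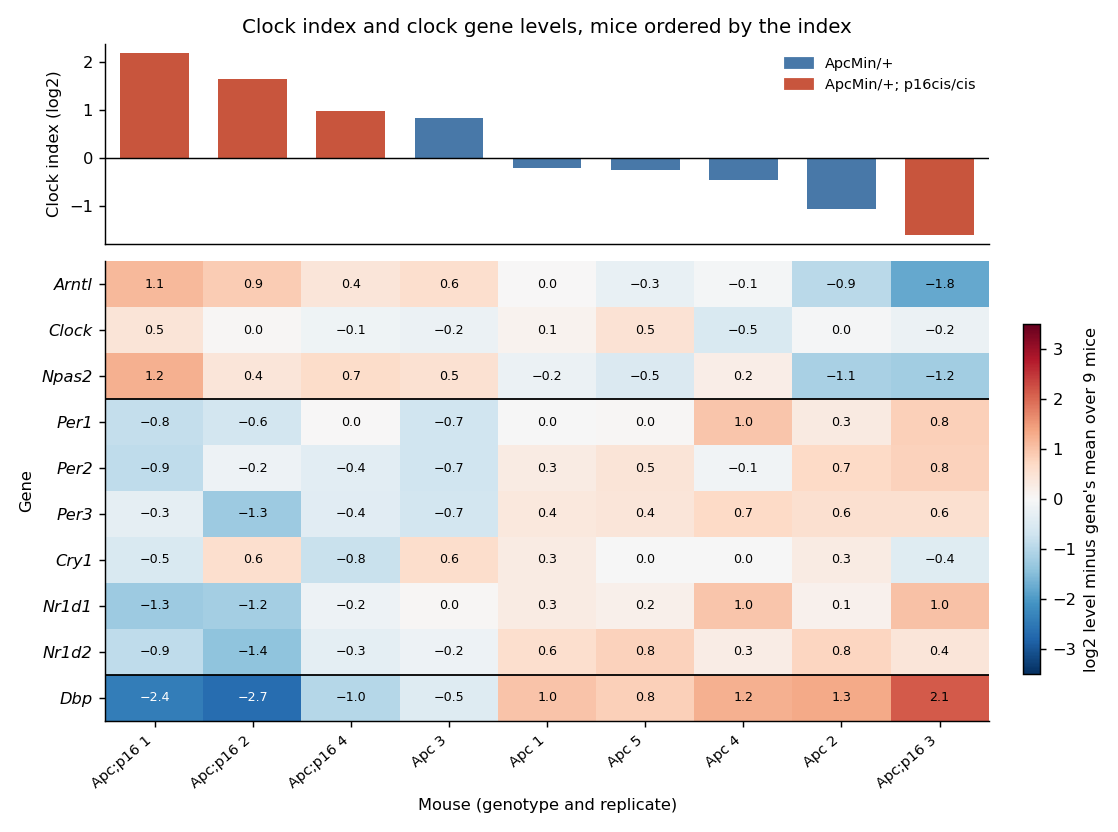
Clock index per mouse (bars, log2 units, colored by genotype) above the log2 level of each clock gene minus the mean of that gene over the 9 mice, with mice ordered by the index and lines dividing the positive limb, the negative limb and the output gene. From left to right Arntl and Npas2 go from above to below their means and Dbp goes the other way, from −2.4 in p16cis/cis replicate 1 to 2.1 in replicate 3, whereas Clock and Cry1 show no such order.

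In some other measures p16cis/cis replicate 3 lay within the range of the rest of its genotype, and in others it did not. Its array weight, which is lower the more a mouse departs from its group over all genes tested, was 0.63. That was below the rest of its genotype (0.82 to 1.23), and ApcMin/+ replicate 4 had a lower weight still (0.33). The mitochondrial share of p16cis/cis replicate 3 was 22.5%, inside the range of the other 3 mice, and its depth was 14535179 reads. Of 9 lists of cell type markers its summed level lay within the other p16cis/cis mice for all but the epithelial (150590, the highest of its genotype) and the crypt base and cycling lists (7779, the lowest). It was a female, as were p16cis/cis replicates 2 and 4. Over the 9 mice, with genotype means removed, Arntl had r = 0.08 with the mitochondrial share, r = −0.09 with log2 depth and r from −0.37 to 0.39 with the 9 marker lists, given as description only.

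Without p16cis/cis replicate 3 (8 mice), 4 of the 10 genes were called. Arntl was higher by 0.96 ± 0.29 (SE, limma adjusted p = 0.046). Dbp was lower with a difference of −2.82 ± 0.44 (adjusted p = 0.00589), Nr1d2 with −1.33 ± 0.27 (adjusted p = 0.0122) and Nr1d1 with −1.21 ± 0.27 (adjusted p = 0.0164), all by limma. Of all genes 7.02% were then called higher and 8.22% lower. The genotypes no longer overlapped in Dbp, Nr1d1 and Nr1d2, which makes 3 of 10 against 22.6% of all genes. Npas2 (0.99, adjusted p = 0.0656) and Per3 (−0.93, adjusted p = 0.0622) came close to the threshold and Clock stayed at 0.14 (adjusted p = 0.687). That mouse was singled out by its clock gene values, so these figures describe how much rests on it and are not a test of genotype.

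**Figure D3:**
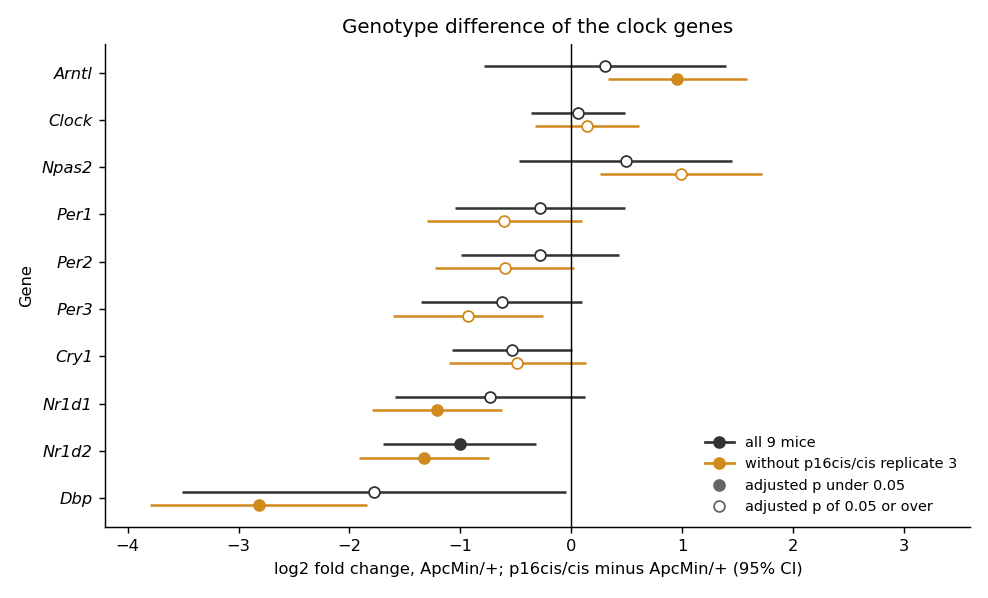
Difference in log2(normalized count + 1), p16cis/cis minus ApcMin/+, for the 10 clock genes with 95% confidence intervals from limma, in all 9 mice and without p16cis/cis replicate 3. Filled points have an adjusted p under 0.05: Nr1d2 with 9 mice, and Arntl, Nr1d1, Nr1d2 and Dbp with 8, and 9 of the 10 points move away from 0 when the mouse is left out, Cry1 being the exception.

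Mice of the same genotype also differed from each other along the loop. After the genotype means were removed, the levels of Arntl and Npas2 went together over the 9 mice (Pearson r = 0.94, exact permutation within genotypes p = 0.00208, adjusted over 9 pairs 0.0125, Spearman rho = 0.83, permutation p = 0.009375). Dbp went against Arntl (r = −0.95, exact permutation p = 0.00556, adjusted 0.0156, rho = −0.93, permutation p = 0.00764). So did Per2 (r = −0.89, exact permutation adjusted p = 0.0125, rho = −0.80), Nr1d2 (r = −0.87, adjusted p = 0.0156, rho = −0.87) and Per1 (r = −0.79, adjusted p = 0.0331, rho = −0.83). Nr1d1 (r = −0.81) and Per3 (r = −0.77) had an adjusted permutation p of 0.0688 each by Pearson r. By rank the adjusted permutation p was 0.058 for Nr1d1 (rho = −0.72) and 0.0339 for Per3 (rho = −0.83). For Nr1d1 the relation was not seen in both genotypes, with r = −0.016 over the 5 ApcMin/+ mice and r = −0.96 over the 4 p16cis/cis mice, given as description only. Clock (r = 0.28, permutation p = 0.459) and Cry1 (r = 0.27, permutation p = 0.614) did not pass. Thus 5 of 9 pairs passed by Pearson r, and by rho Per3 passed as well.

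These relations were also computed without 2 mice, p16cis/cis replicate 3 and ApcMin/+ replicate 2. Both were farthest from the median of Arntl once genotype means were removed, so leaving them out narrows its range. The r was then −0.88 for Dbp, −0.78 for Per2, −0.78 for Nr1d2, −0.76 for Per1 and 0.73 for Npas2. No pair passed (lowest adjusted permutation p 0.175). Only 144 arrangements remained, with a smallest possible unadjusted permutation p of 0.00694. That leaves little room to pass over 9 pairs, so no conclusion is drawn from it. With sex removed as well as genotype, r was −0.95 for Dbp and 0.94 for Npas2. The lowest adjusted permutation p was 0.0938 over the 72 arrangements that remained, where the smallest possible unadjusted p is 0.0139. Between the other genes, all 15 pairs among Per1, Per2, Per3, Nr1d1, Nr1d2 and Dbp had r from 0.57 to 0.92, and all 12 pairs of Arntl or Npas2 with those 6 genes had r from −0.97 to −0.61. Cry1 had r from −0.71 to 0.27 with the other 9 genes.

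**Figure D4:**
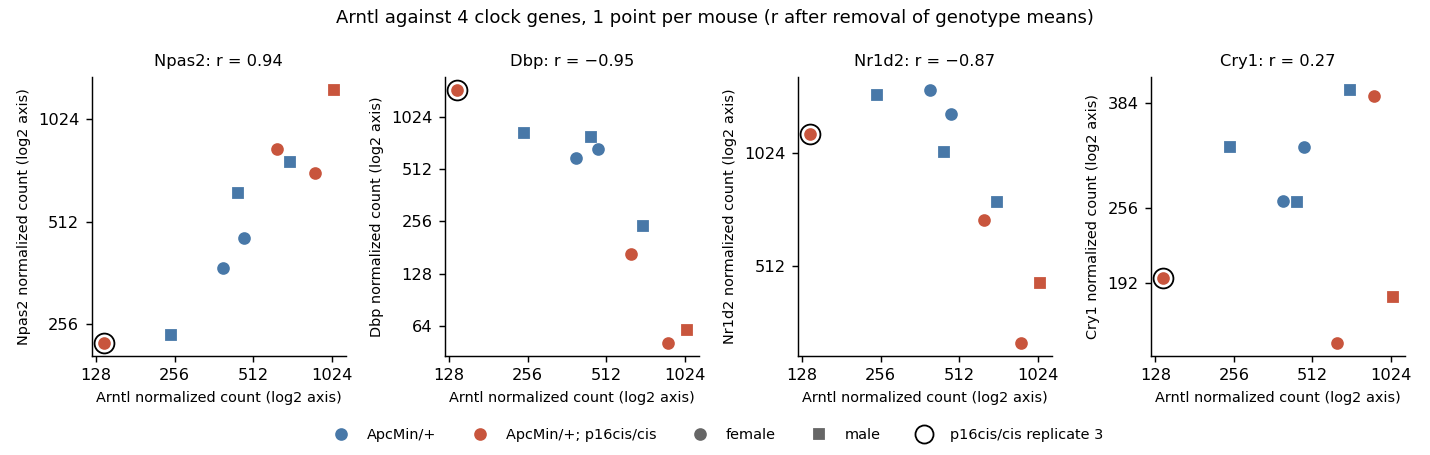
Normalized count of Arntl (x axis, log2) against that of Npas2, Dbp, Nr1d2 and Cry1 (y axes, log2) in the 9 mice, with r of the log2 values after removal of genotype means. Npas2 climbs and Dbp descends with Arntl along 1 line that holds mice of both genotypes, with p16cis/cis replicate 3 at one end and p16cis/cis replicates 1 and 2 at the other, and Cry1 shows no line.

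Among all 14410 genes tested, those whose deviations from the genotype mean were most like those of Dbp were Tef (r = 0.99, 9 mice), Igsf11 (0.98), Ciart (0.96), Nsf (0.96) and Usp2 (0.96). For Arntl they were Cpm (r = 0.96), Npas2 (0.94), 2010015M23Rik (0.93), Fgfbp3 (0.93) and Wdr63 (0.92). Tef is a sister of Dbp among the D-box activators, and Ciart encodes a repressor of the BMAL1 pair. Tef had normalized counts of 1834, 2261, 870.2, 2568 and 2114 in ApcMin/+ mice and 390.2, 297, 2515 and 709.6 in p16cis/cis mice. Ciart had 100.4, 189, 35.1, 161 and 129 in ApcMin/+ mice and 6.31, 14.4, 252 and 36.0 in p16cis/cis mice. In both genes p16cis/cis replicate 3 stood far above the rest of its genotype, as in Dbp. The Tef difference was −1.43 (limma adjusted p = 0.0795) and the Ciart difference −1.75 (limma adjusted p = 0.167). Without that mouse the differences were −2.06 and −2.75, which is a description only, because genes found by their likeness to Dbp share its high value in that mouse.

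Of the 11 genes in a list of further core clock genes, 9 were tested and 0 passed (median difference −0.33), with an unadjusted limma p under 0.05 for Tef and Cry2, and edgeR and DESeq2 also called 0. Cry2, the paralog of Cry1, had a difference of −0.60 (limma adjusted p = 0.098). The repressor Bhlhe40 had −0.20. Rora and Rorb, receptors that activate through the RORE, had −0.36 and 0.70 (limma adjusted p = 0.499 and 0.236). Both were near the filter minimum of 10, at 8.84 to 25.4 and 6.81 to 23.9 normalized counts over the mice. Arntl2, the paralog of Arntl, had 0.62, and Nfil3, the repressor at D-boxes, had 0.23 and was lowest in p16cis/cis replicate 3 (63.1 against 158 to 238 in the other 3). Bhlhe41 and Hlf were too low to be tested.

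Of 24 listed genes that modify clock proteins 23 were tested, and 1 passed as higher and 4 as lower in p16cis/cis mice (median −0.08). Over all genes tested 8.14% passed as higher and 8.75% as lower. Prkaa1, a catalytic subunit of AMP kinase, had normalized counts of 1758, 1509.9, 1696, 1611 and 1858 in ApcMin/+ mice and 1262, 1357, 1178 and 1131 in p16cis/cis mice. The groups did not overlap, as in 16.2% of all genes, and Prkaa1 was lower by 0.45 (limma adjusted p = 0.0112). The other catalytic subunit, Prkaa2 (−0.53, adjusted p = 0.0206) and the ligase subunit Fbxw11 (−0.40, adjusted p = 0.0156), which acts on PER, were also lower by limma. Csnk2b, the regulatory subunit of casein kinase 2, was higher (0.51, limma adjusted p = 0.025). Its highest value was in p16cis/cis replicate 3 (5195 against 3834 to 4076 in the rest of that genotype). Without that mouse the difference was 0.41 (limma adjusted p = 0.0577), and the call held in 14 of 23 alternatives. With genotype means removed Prkaa1 had r = 0.45 with Arntl, and Prkaa2 r = −0.76.

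Of 14 listed clock-controlled genes 10 were tested, and Ppara, the fatty acid receptor, passed as lower (−1.15, limma adjusted p = 0.0111). It had normalized counts of 164, 188, 195, 277 and 276 in ApcMin/+ mice and 138, 94.1, 109.7 and 61.1 in p16cis/cis mice. For Ppara too the groups did not overlap, as in 16.2% of all genes, and replicate 3 lay among its group. Of 10 listed glucocorticoid response genes, Per1 being one, 9 were tested and all 9 differences were below 0 (median −0.56), of which 3 passed. These were Nr3c1, the glucocorticoid receptor (−0.75, adjusted p = 0.0056), and its targets Fkbp5 (−1.24, adjusted p = 0.012) and Sgk1 (−1.28, adjusted p = 0.0207), all by limma. Fkbp5 was at 4321, 3039.8, 3094, 7024 and 2279 in ApcMin/+ mice and at 1166, 1869.5, 1769 and 1493 in p16cis/cis mice, and r with Arntl after removal of genotype means was −0.11. Over all 57 genes of these 4 lists 49 were tested, and 1 passed as higher and 8 as lower, which is to be read beside the 8.14% and 8.75% of all genes.

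Per kilobase of exon, the mean normalized count in ApcMin/+ mice was highest for Nr1d1 (590 ± 175, SD, n = 5), above the next genes, Nr1d2 (223 ± 57.9), Per1 (217 ± 93.6) and Dbp (207 ± 77.5), which did not differ from each other beyond their spread. Arntl (60.5 ± 22.3) and Per3 (72.7 ± 21.5) had the lowest means. Their spreads overlapped each other and those of Cry1 (94.4 ± 17.4) and Npas2 (103 ± 43.1).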

How the data were processed

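RNA-seq of colonic mucosa from 9 mice was used. According to the methods, the authors sequenced the libraries on a BGISEQ-500, aligned reads with BOWTIE2, and quantified genes with RSEM and DESeq2. The build and versions are not given in the sources used here. The deposited table holds signal values: the count of each gene after division by a factor for library size. Whole reads were recovered from them: 100% of positive values were whole multiples of 1 read within 0.01 reads. All 10 clock gene identifiers, versions included, were found in GENCODE M21 (GRCm38).

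The main test was limma 3.58.1 (R 4.3.3) with trended variances on log2(value + 1), fitted to the 14410 genes that reached 10 in 4 or more mice, with no term but genotype and Benjamini-Hochberg adjustment (call: adjusted p under 0.05). On recovered reads, edgeR 4.0.16 called 1165 genes higher and 1304 lower, and DESeq2 1.42.0 called 1568 and 1662. The fits were tested on simulated data. Each sample was taken as 1 mouse, which the labels do not state outright, so p-values measure the spread between these samples. Correlations used deviations from genotype means, with exact permutation of mice within genotypes (2880 arrangements), two-sided.

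The clock genes and lists were chosen with earlier results of these data known. Named genes are the 10 clock genes, all further core clock genes, those of the other lists that passed, the 5 genes most correlated with Arntl and with Dbp, and Cdkn2a. Some results under this rule are not reported here. Alternatives were other scalings, tests, pseudocounts, filters, terms and weights, females only, and each mouse left out.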

Additional observations from a re-analysis of the deposited data

Results flagged for a closer look

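Within the ApcMin/+ group, 3 single values stood apart from the other 4 mice by Dixon's ratio (gap to the nearest mouse over the range of log2 values, critical value for 5 mice at the 95% level). Per3 in replicate 3 was 349 (ratio 0.759), with the other 4 mice at 706 to 883. Dbp in the same mouse was 241 (ratio 0.726), with the others at 590.2 to 827. Nr1d1 in replicate 4 was 2759.6 (ratio 0.718), with the others at 1439 to 1729.6. Over the 22 groups of values examined (10 genes and the clock index in each genotype), 1.1 such values are expected by chance. No value of the p16cis/cis group was marked, replicate 3 included, where the ratio needed for 4 mice is higher.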

How the results depend on the processing

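For the 10 clock genes, 205 of 229 alternative differences kept their direction and their side of the threshold, 12 lost and 5 gained a call, and 7 changed sign. Sign changes were Arntl in females only (−0.025) and among leave-one-mouse-out fits (−0.019 to 0.96), Clock in females only (−0.42), with the mitochondrial share as a covariate (−0.047) and with mice left out (−0.082 to 0.20), and Per1 in females only (0.058). Of the other named genes, Arntl2 (−0.57), Rorb (−0.18) and Nfil3 (−0.34) changed sign with the mitochondrial share, Rora in females only (0.074), and Nfil3 with a mouse left out (−0.012 to 0.62). The causes were not tested. Clock genes called lower were 0 by edgeR with TMM and with RLE, with a pseudocount of 0.1, in females only, with the mitochondrial share and with the replicate block, 2 with array weights, and 0 to 3 with mice left out, against 1. Clock genes called higher were 0 to 1 with mice left out. Other listed genes called higher were 0 with sex, in females only, with the block and with the mitochondrial share, and 0 to 2 with mice left out. Those called lower were 2 in females only, 0 with the mitochondrial share, 15 with array weights and 6 to 13 with mice left out. Of the 9 called in all, 3 had a fold change over 2. All genes called higher and lower were 676 and 761 with sex, 519 and 379 in females only, 0 and 0 with the mitochondrial share (353 and 445 at an unadjusted p under 0.05), 1984 and 2129 with array weights, and 535 to 1691 and 648 to 1797 with mice left out. Clock genes correlated with Arntl at an adjusted permutation p under 0.05 were 0 under both alternatives, where only 144 and 72 arrangements remained. DESeq2 gave Dbp no adjusted p.

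Replicate numbers did not pair the mice (correlations of same-numbered mice −0.18, 0.07, 0.05 and 0.14). With the replicate number as a block over the 4 shared numbers, Nr1d2 was −0.92 (limma adjusted p = 0.123) and 0 clock genes were called lower.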
